A study of Bos taurus and Ovis aries and Capra hircus with 9 samples.

Results

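Nuclear genes of 2 or 3 exons were examined in liver RNA-seq of cattle, sheep, and goats. A gene belonged to them when its row in the count table lay outside the mitochondrial chromosome (MT) and its exon intervals, pooled where they overlapped, left 2 or 3 separate exons. This gave 5155 of 27607 genes in cattle (18.7%), 3873 of 26478 in sheep (14.6%), and 5563 of 27271 in goats (20.4%). The 9 libraries came from the livers of 9 healthy adult animals, namely 3 cattle (Holstein), 3 sheep (Texel), and 3 goats (Yunnan black goat). The libraries of a species carry the letters A, B, and C as replicates. The labels name no treatment. The mRNA was enriched with oligo(dT) beads before cDNA synthesis, and the deposited values are counts of reads per gene. The cattle gene models and positions are on ARS-UCD1.2, those of sheep on Oar_rambouillet_v1.0, and those of goats on ARS1.

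The exons of a gene are the stretches kept in its mature RNA, and the introns between them are removed by splicing. A gene of 2 exons has 1 intron and no internal exon, and a gene of 3 exons has 1 internal exon. Many compact genes of vertebrates that are switched on quickly, or that encode short secreted or small binding proteins, have few exons. The liver makes a large part of the proteins of blood plasma, so a few genes of this kind can take many reads there. The count tables give Ensembl identifiers without gene names and no table used here paired them, so genes are given by identifier and position. The labelled tissue could not be checked against named liver markers for the same reason.

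The total counts on genes ran from 47996593 to 61105490 in cattle, from 28332266 to 40784417 in sheep, and from 16507706 to 35647106 in goats. The CPM of a gene is its count scaled to these totals (counts per 1000000). A gene with 3 counts had a CPM of 0.0491 to 0.106 in the cattle and sheep libraries and of 0.0842 to 0.182 in the goat libraries, and this limit covers counting error only. Between 2091 and 2970 of the 2- and 3-exon genes had at least 1 count in a library.

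A smaller part of the 2- and 3-exon genes than of the genes with more exons was detected in liver. A CPM of at least 1 in all 3 libraries of the species was reached by 1209 of these genes in cattle (23.5%), 941 in sheep (24.3%), and 1225 in goats (22.0%). Of the genes with 4 or more exons, 65.0% reached it in cattle, 66.3% in sheep, and 62.0% in goats, whereas 4.45%, 6.87%, and 8.96% of the single-exon genes did. No count at all was found in the 3 libraries for 34.6% of the 2- and 3-exon genes in cattle, 36.6% in sheep, and 47.0% in goats, against 8.89%, 8.63%, and 13.1% of the genes with 4 or more exons. In bulk liver, fewer cells of a type and less RNA per cell cannot be told apart.

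The 2- and 3-exon genes were also shorter, with a median annotated exon length of 1017, 699, and 774 nt in cattle, sheep, and goats, compared with 2453 nt, 1676 nt, and 1945 nt for genes with 4 or more exons. The genes were therefore compared within bins of length. In 15 of 15 bins, 5 in each species, the detected share was lower for the 2- and 3-exon genes. Between 1000 and 2000 nt, for example, 28.3% of 1770 such genes were detected in cattle, 37.6% of 793 in sheep, and 23.9% of 1178 in goats, against 56.4%, 66.2%, and 58.6% of the genes with 4 or more exons. These shares describe annotated genes and have no replicate error. In cattle the detected share rose with each length bin, from 6.02% below 500 nt to 64.6% from 4000 nt. In goats, 21.9% of the 1789 genes below 500 nt were detected, compared with 16.1% of the 1798 genes of 500 to 1000 nt.

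**Figure D1:**
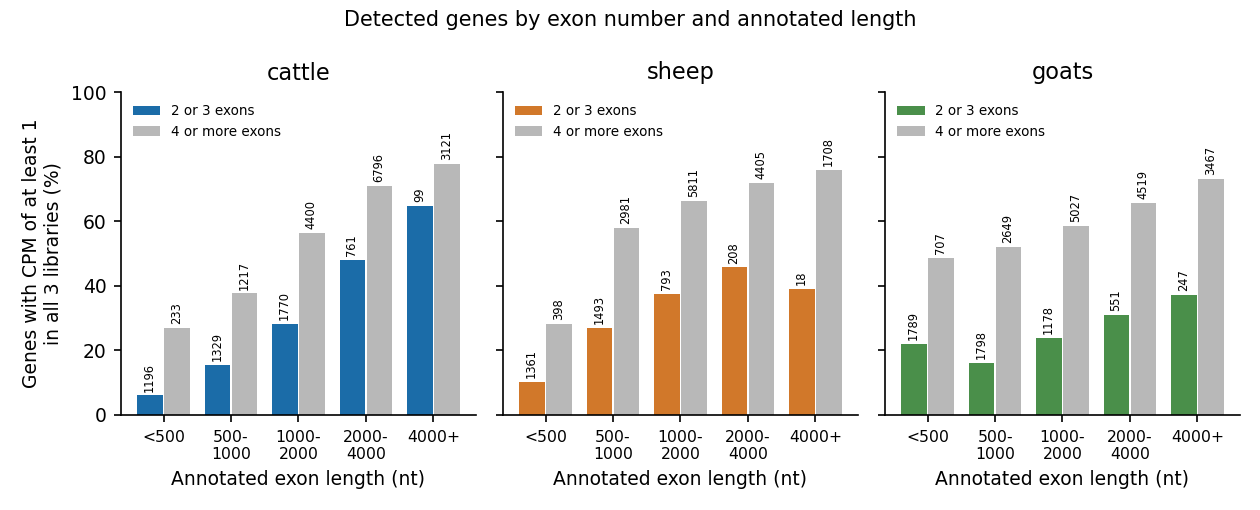
The bars give the percentage of genes with a CPM of at least 1 in all 3 libraries of a species (y axis) by annotated exon length in nt (x axis), in colour for genes of 2 or 3 exons and in grey for genes of 4 or more exons, with the number of genes above each bar. The coloured bar is the lower one in all 15 bins.

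Among the detected genes, the median CPM of the 2- and 3-exon genes was 8.47 in cattle, 10.1 in sheep, and 11.5 in goats, and that of genes with 4 or more exons was 17.7, 18.7, and 19.1. Per kb of annotated exon length, the medians were closer, at 5.75, 10.6, and 12.5 CPM per kb for the 2- and 3-exon genes and 6.22, 9.68, and 8.44 CPM per kb for the others. Genes of 3 exons were detected more often than genes of 2 exons in cattle (28.2% and 19.5%) and in sheep (31.6% and 19.0%), whereas in goats the order was the reverse (19.9% and 25.3%). The goat annotation held more 3-exon models, 3369 against 2338 in cattle and 1615 in sheep. It also held more models with a gap of under 30 nt between exons, 602 genes (10.8%) against 68 (1.32%) in cattle and 150 (3.87%) in sheep. Of the goat genes with such a gap, 12.1% were detected, compared with 23.2% of those without. In cattle the shares were alike (23.5% and 23.5%), and in sheep they were 27.3% with a gap and 24.2% without. Exons of 333 cattle, 103 sheep, and 200 goat genes overlapped those of another gene, and for these the counting options, which the sources used here do not state in full, could shift reads between the overlapping genes. Animals of one species differed by a median coefficient of variation of 13.9%, 20.3%, and 27.3% in cattle, sheep, and goats over those 2- and 3-exon genes whose mean CPM was 10 or more. The values for genes with 4 or more exons were 13.6%, 19.6%, and 34.5%.

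The 2- and 3-exon genes took a larger share of the counts in goats than in cattle and the smallest in sheep. Of all counts on genes, they held 4.63% ± 0.217 (SD, n = 3) in cattle, 3.51% ± 0.149 in sheep, and 9.11% ± 2.18 in goat livers. The shares of the cattle libraries lay between 4.41% and 4.85%, and those of the sheep libraries between 3.36% and 3.65%. The goat libraries had 7.23% (A), 8.61% (B), and 11.5% (C), so the libraries of the 3 species did not overlap. The share was 1.11 percentage points higher in cattle than in sheep. In goats it exceeded the cattle share by 4.49 points and the sheep share by 5.60 points. Each had p = 0.1 (two-sided exact permutation test, 3 comparisons, adjusted p = 0.1), which is the smallest p that 3 libraries against 3 allow. Per 100 counts on genes with 4 or more exons, the 2- and 3-exon genes had 5.48 ± 0.310 in cattle, 3.81 ± 0.147 in sheep, and 10.5 ± 2.97 in goat livers. Mitochondrial genes took 10.4% of cattle counts, 2.45% of sheep counts, and 2.23% of goat counts. With nuclear counts as the total, the shares became 5.17%, 3.60%, and 9.34%. With every count divided by the annotated exon length, they became 6.74% ± 0.342, 6.34% ± 0.406, and 22.3% ± 3.71, and the cattle and sheep libraries then overlapped (p = 0.3, exact permutation test).

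The counts were concentrated in few genes. The most abundant 29 genes in cattle, 41 in sheep, and 8 in goats made up 50% of the counts on 2- and 3-exon genes, compared with 110, 140, and 164 genes among those with 4 or more exons. Without the most abundant 2- or 3-exon gene of each species, the shares were 4.21% ± 0.254, 3.38% ± 0.153, and 6.23% ± 0.332, an alternative chosen after the data had been seen. Without the 10 most abundant, they were 2.99% ± 0.111 (cattle), 2.67% ± 0.161 (sheep), and 4.58% ± 0.352 (goats). The 3 species still did not overlap, though the excess of goats over cattle fell from 4.49 to 1.59 percentage points. Without the 10 most abundant, cattle and sheep lay close together, with 2.87% in the lowest cattle library and 2.85% in the highest sheep library.

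**Figure D2:**
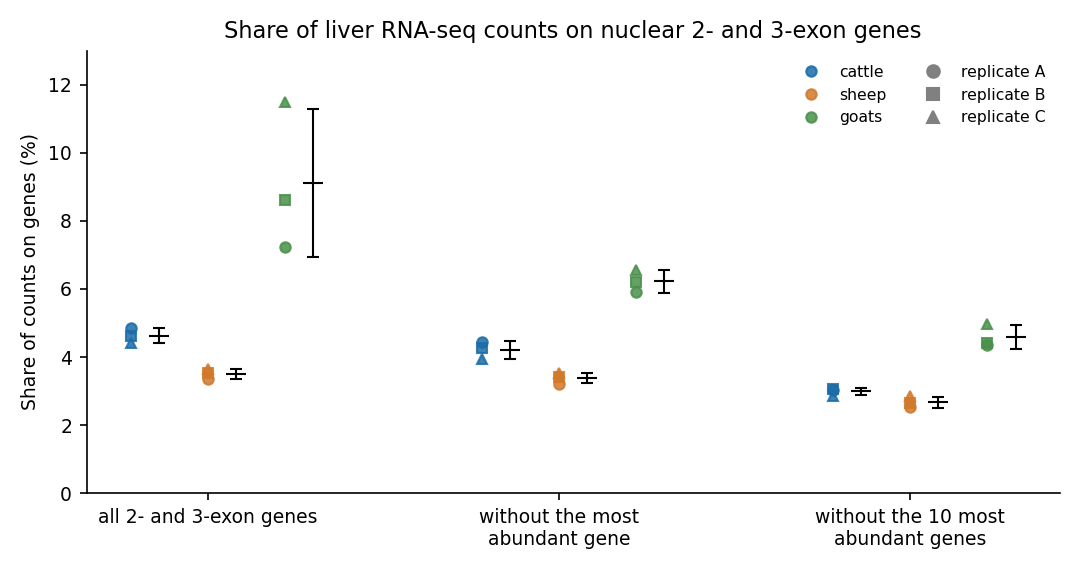
The y axis gives the share of all counts on genes, in percent, that fell on nuclear 2- and 3-exon genes, for each library (symbols) of cattle, sheep, and goats, with the mean and SD of the 3 libraries in black. The goat libraries range from 7.23% to 11.5% with all genes and from 5.90% to 6.57% without the most abundant gene.

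In goats, 1 gene, ENSCHIG00000012599, held 33.8% of the counts on 2- and 3-exon genes. It lies at chr1:54186145-54186825 and has 3 exons with an annotated length of 579 nt, an internal exon of 51 nt, and introns of 81 and 21 nt. The gap of 21 nt makes it one of the 602 goat models with a gap under 30 nt. With that gap joined, the gene would have 2 exons. Its CPM was 14142 in replicate A, 25625 in B, and 52781 in C, a 3.73-fold range that made it the second most abundant of all goat genes by mean CPM. This was 1.41%, 2.56%, and 5.28% of all counts in the 3 libraries. The level was highest in the library with the fewest counts (16507706 in C) and lowest in that with the most (35647106 in A), and the part of depth or RNA quality in this order was not tested. Between the same flanking genes and on the corresponding strand, the gene with the most counts reached a mean CPM of 1.49 ± 0.312 in cattle and 0.0640 ± 0.0715 in sheep. That interval spans 2314863 nt in cattle and 2708909 nt in sheep and holds 5 and 7 genes on that strand. Genes on the other strand were not compared. By flanking genes and a length within 2-fold, the goat gene was joined with ENSBTAG00000054558 (2 exons, 1024 nt; 4, 13, and 8 counts in the cattle libraries) and ENSOARG00020005337 (3 exons, internal exon 120 nt, 648 nt), which had 1 count in the 3 sheep libraries together. These genes are unlike it in exon structure, and none with an alike internal exon and introns was found there on that strand. Its share of the counts on 2- and 3-exon genes, 19.6% in replicate A, 29.8% in B, and 45.9% in C, went with the spread between the goat libraries, whose SD was 2.18 with this gene and 0.332 without it.

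In cattle, a pair of nearby 3-exon genes on chromosome 18 stood at ranks 1 and 4. ENSBTAG00000054808 (chr18:24023262-24026381, 1714 nt) had a CPM of 4255, 3887, and 4947 in replicates A, B, and C. ENSBTAG00000023659 (chr18:24042348-24043480, 586 nt) had 2499, 1668, and 1751. Both have an internal exon of 66 nt and lie in an array of 4 such genes between 2 flanking genes shared by the 3 species. Between the pair lie ENSBTAG00000001595, with 4 exons, and ENSBTAG00000038706, a 3-exon gene with an internal exon of 1149 nt and a CPM of 232 ± 128. Genes in arrays can share reads with their copies, and the assignment of reads to single copies is uncertain here.

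The same interval held 5 genes with a 66-nt internal exon in sheep (chromosome 14) and 4 in goats (chromosome 18), and the lengths of their introns allowed single copies to be followed. The copy with introns of 697 and 709 nt in cattle had introns of 712 and 708 nt in sheep (ENSOARG00020023615) and of 712 and 709 nt in goats (ENSCHIG00000020804). The sheep copy had a CPM of 10.4, 91.8, and 24.9, and the goat copy of 108, 25.3, and 48.8, so every cattle library lay above every sheep and goat library. The mean CPM was 103-fold higher in cattle than in sheep and 71.9-fold higher than in goats. Per kb of annotated length, which is 384 nt for the sheep and 1228 nt for the goat copy, the ratios were 23.1 and 51.5.

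The second cattle copy, with introns of 292 and 255 nt, matched a sheep copy with introns of 292 and 254 nt (ENSOARG00020023664) that had a CPM of 3.15, 36.8, and 6.95. The copy with introns of 232 and 820 nt was at 0.0427 CPM in cattle, with its counterparts at 0.0402 in sheep (230 and 816 nt) and 2.21 in goats (226 and 819 nt). The last copy had no count in any of the 9 libraries. Summed over the copies, the CPM was 6336 ± 677 in cattle, 84.5 ± 95.3 in sheep, and 79.4 ± 47.8 in goats, which is 74.9-fold and 79.8-fold higher in cattle by the means. Sheep replicate B, with a sum of 194, was far above replicates A (19.8) and C (39.9), and the lowest cattle library was still 28.6-fold above it. Other genes in the interval with 4 or 5 exons, such as ENSBTAG00000001595 with a CPM of 627 ± 219 in cattle, are not in these sums.

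**Figure D3:**
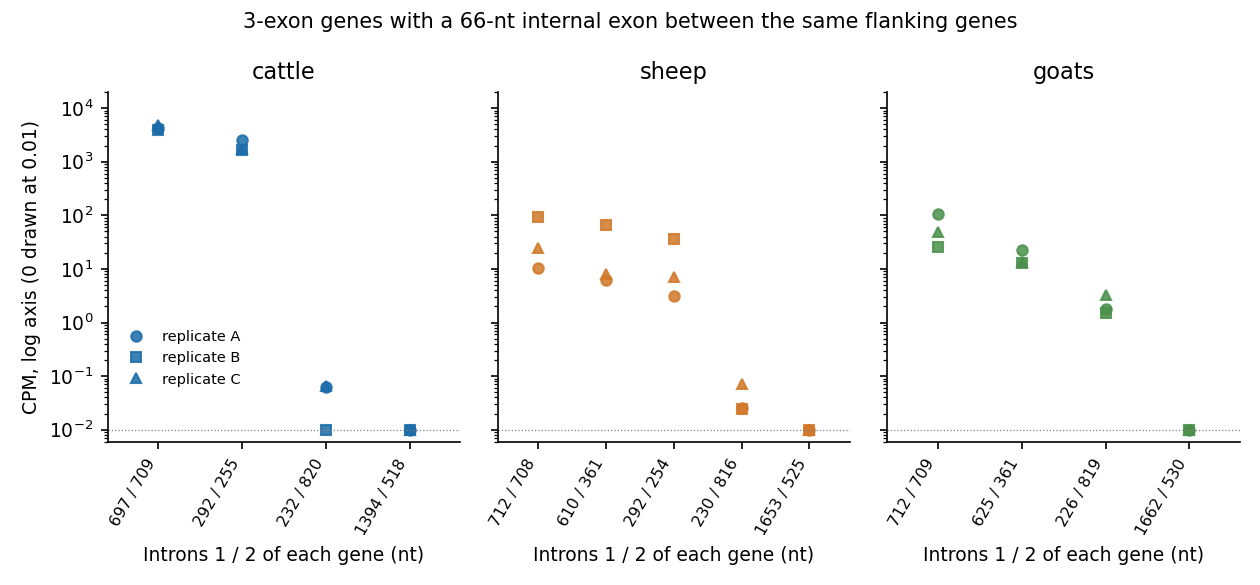
Each column is a 3-exon gene with a 66-nt internal exon, ordered by position within each species and labelled by the lengths of its 2 introns in nt, and each symbol is the CPM of 1 library on a log axis, with 0 drawn at 0.01. The first and the second cattle copy lie above 1600 CPM in all libraries, whereas the sheep and goat copies lie at or below 108 CPM.

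Among the other abundant cattle genes, ENSBTAG00000011184 (chr29:40477517-40480266, 3 exons) had a mean CPM of 2653 ± 667. The only gene on the corresponding strand between the same flanking genes had 2114 ± 305 in sheep and 3160 ± 322 in goats, with 5 and 4 annotated exons. ENSBTAG00000013907 (chr3:9983501-9987619) is a 2-exon gene with an intron of 237 nt and a length of 3882 nt, and its CPM was 2357 ± 180. The sheep gene in its place, ENSOARG00020009837, had introns of 237 and 3 nt, a length of 675 nt, and a CPM of 556 ± 295. The ratio of cattle to sheep was 4.24 by CPM and 0.737 per kb. The goat gene with the most counts in that place, ENSCHIG00000015232 (4 exons, 789 nt), had 381 ± 328, and the ratio of cattle to goats was 6.18 by CPM and 1.26 per kb. The same interval held ENSBTAG00000019616 (chr3:10127730-10129290), a 2-exon gene with an intron of 110 nt and a CPM of 664, 600, and 775 in the cattle libraries. A goat 2-exon gene with an intron of 108 nt, ENSCHIG00000026603, had 2, 2, and 1 counts in the goat libraries.

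ENSBTAG00000018556 (chr5:71706750-71712324) belonged to a group of 3 adjacent 3-exon genes with internal exons of 138 or 129 nt. Together with the other members of its interval, the summed CPM was 2985, 2774, and 1469 in cattle, 786, 1063, and 1287 in sheep, and 1624, 1947, and 1294 in goats. Cattle and goats overlapped here, and in sheep a neighbour with 4 exons and a CPM of 255 ± 45.3 was not counted among the 3-exon genes. The remaining genes of the first 8 in cattle were ENSBTAG00000019612 (chr10:26391241-26412980), ENSBTAG00000031647 (chr7:19596244-19599321), and ENSBTAG00000017042 (chr18:45994746-45996356), with a mean CPM of 1121, 1103, and 860.

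In sheep, the counts were spread more evenly, and the first gene held 3.82% of the counts on 2- and 3-exon genes. ENSOARG00020021921 (chr11:49504914-49506577, internal exon 115 nt, introns 577 and 399 nt) had a CPM of 1416, 1263, and 1347. Its goat counterpart by place and structure, ENSCHIG00000014748 (chr19:13921475-13922740, internal exon 115 nt, introns 594 and 402 nt), was also among the first 8 of its species, with a CPM of 1280, 1297, and 789. ENSOARG00020024796 (chr15:30211969-30213613) and ENSCHIG00000021348 (chr15:54838723-54840301) shared an internal exon of 154 nt and introns of 182 and 599 nt, and they had a CPM of 970 ± 170 in sheep and 2500 ± 795 in goats. ENSOARG00020019708 on the sheep X chromosome (122171063 to 122178858) and ENSCHIG00000000381 on the goat sequence LWLT01000027.1 (24902121 to 24910371) shared an internal exon of 156 nt, and their CPM was 1108 ± 38.9 and 2068 ± 427. In cattle, a 3-exon gene of chromosome X with the same internal exon, ENSBTAG00000019552, had 363, 173, and 132.

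The other sheep genes of the first 8 were ENSOARG00020013416 (chr5:43900857-43908884), ENSOARG00020007162 (chr3:175470807-175472947), ENSOARG00020012533 (chr14:59705795-59709575), ENSOARG00020000339 (chr3:193470151-193477550), and ENSOARG00020023827 (chr24:35039033-35040704), with a mean CPM from 1180 to 576. Of these, ENSOARG00020012533 had 840 ± 173 in sheep, and the cattle gene of the same internal exon (297 nt) and introns of 1271 and 1530 nt, ENSBTAG00000003457, had 107 ± 28.2. ENSOARG00020023827 had 576 ± 85.6, compared with 106 ± 12.8 and 134 ± 17.6 in the cattle and goat genes with the same 64-nt internal exon. In both cases the sheep libraries lay above all libraries of the other species that were compared.

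In goats, ENSCHIG00000024540 (chr3:111838353-111839282, 303 nt) had a CPM of 3910, 5603, and 7241. The only gene on the corresponding strand between the same flanking genes had 4 exons in both other species, with 1403 ± 434 in cattle (475 nt) and 6021 ± 2288 in sheep (464 nt). Goats and sheep overlapped. ENSCHIG00000014534 (chr15:54852779-54854519, 294 nt) had 1427 ± 27.3, and its 4-exon counterparts had 1239 ± 224 in cattle and 3068 ± 254 in sheep, while 26.9% of its exon length overlapped exons of another gene. The other goat genes of the first 8 were ENSCHIG00000023594 (chr7:42226342-42231474) and ENSCHIG00000015112 (chr5:92090568-92107627), with a mean CPM of 1328 and 955.

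Of the 24 genes listed for the 3 species, 21 had 3 exons and 3 had 2. For 48 of 48 checks, each of a gene in 1 of the other species, the flanking genes were found in the same neighbourhood. In 41 of these, the gene with the most counts on the corresponding strand between the flanking genes had a mean CPM of at least 100. This gene had 2 or 3 exons in 23 checks, 4 or more in 16, and 1 in 2. Of the 14 such checks that started from goat genes, it had 4 or more exons in 9 and 2 or 3 in 5. The gene with the most counts in a place thus often had 4 or more annotated exons, but it need not be the counterpart of the listed gene. For ENSOARG00020019708 in goats it was ENSCHIG00000018693, with 17 exons, and not ENSCHIG00000000381, which is alike in structure.

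**Figure D4:**
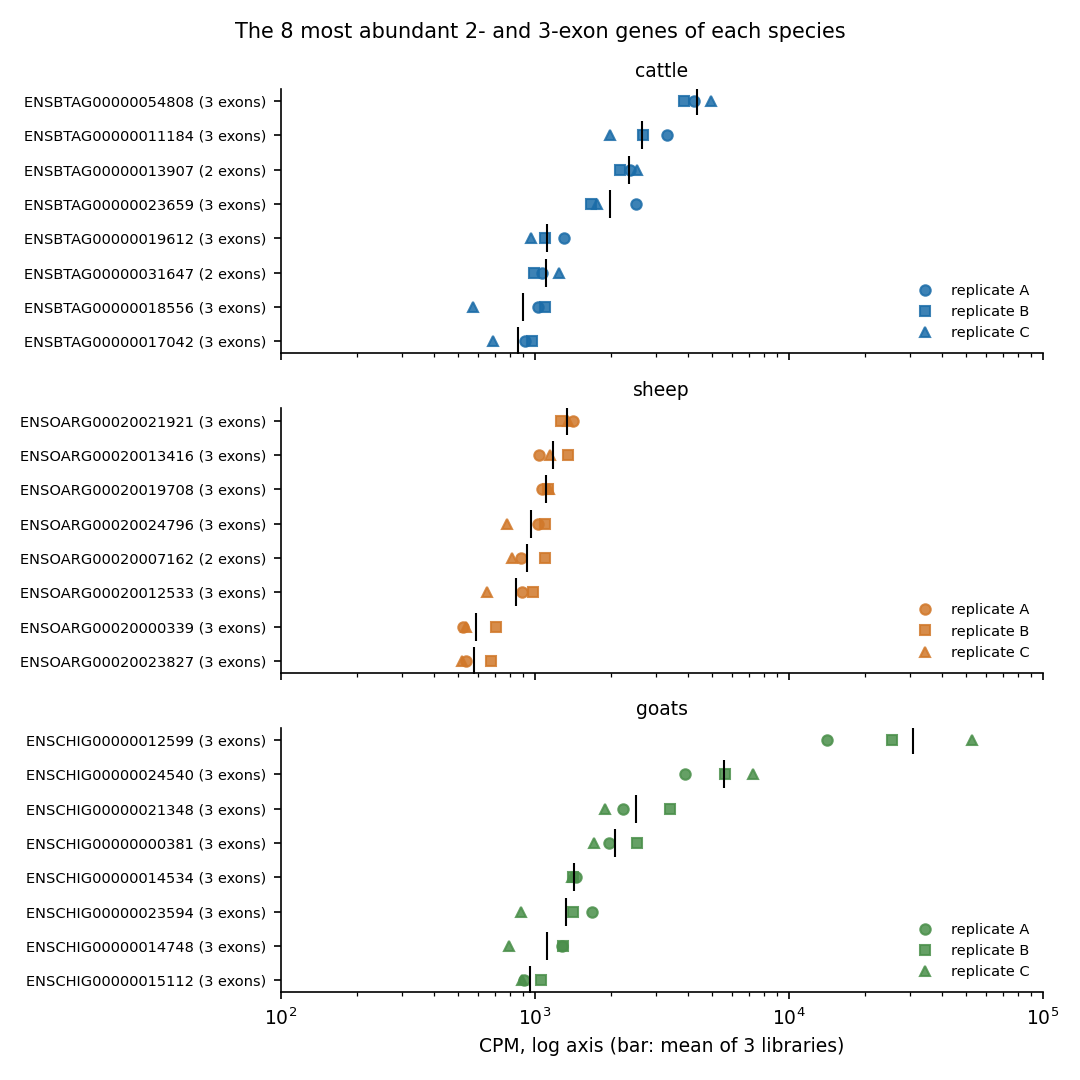
The x axis gives CPM on a log scale for the 8 most abundant 2- and 3-exon genes of each species (rows), with a symbol for each library and a bar at the mean. The first goat gene lies between 14142 and 52781 CPM, above the highest cattle value of 4947.

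To compare the species, genes were matched by place and annotated length. For each pair of species, flanking genes were taken from genes with more exons that could be matched by the lengths of their internal exons. There were 10093 such pairs for cattle and sheep, 9851 for cattle and goats, and 9853 for sheep and goats. Of these genes, 8865 were matched in all 3 species. A 2- or 3-exon gene was matched when a gene of the same class, on the same strand and with a length within 2-fold, lay between the same flanking genes and no other came as close in length. This gave 1103 cattle-sheep pairs, 1295 cattle-goat pairs, and 1223 sheep-goat pairs, and 467 genes were matched in all 3 species, which is 9.06% of the genes in cattle, 12.1% in sheep, and 8.39% in goats. For 23.8% to 36.6% of the genes of a species, no gene of like length lay between the flanking genes in the other species, and for 9.84% to 16.6% the gene closest in length had 4 or more exons. A total of 97 of the 467 had a CPM of at least 1 in all libraries of all 3 species, and 271 did so in no species. In sheep and goats but not cattle, 28 did so, against 14 in cattle and sheep only and 11 in cattle and goats only. In cattle, sheep, or goats alone, 19, 15, and 12 did so. The same split over all genes is not given here.

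The match used neither internal exons nor introns, and these were compared next. Where both genes of a pair had 3 exons, the internal exon was of the same length in 66.6% of 362 cattle-sheep pairs, 44.1% of 472 cattle-goat pairs, and 64.1% of 407 sheep-goat pairs. Over all possible pairs of 3-exon genes, the share was 0.280%, 0.298%, and 0.281%. The longer intron exceeded the shorter by at most 25% in 66.1%, 53.1%, and 67.3% of the introns compared. In the remaining pairs the exon or intron lengths differed, so genes were also matched in a second way, chosen after the data had been seen. It required 3 exons, the same flanking genes and strand, an internal exon of the same length, and both introns at most 25% longer in one species than in the other, and did not use length. This gave 265 genes in all 3 species, of which 79 were in the first set too. Here the annotated length of the same gene differed more than 2-fold in 30.8% of 399 cattle-sheep pairs, 39.6% of 407 cattle-goat pairs, and 30.4% of 415 sheep-goat pairs. The cattle model was the longer one in 324 of 399 pairs with sheep, with a median of 1329 nt against 814 nt.

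Levels of the matched genes were then tested with edgeR in 1 fit of all genes matched in the 3 species, with the values below as CPM of the TMM-scaled totals of these genes (scaled CPM). Of the 467 genes matched by place and length, 234 passed the filter of a scaled CPM above 1 in at least 2 of the 9 libraries, and these include genes that passed by being high in only 1 species. At an adjusted p under 0.05 (edgeR, Benjamini-Hochberg over 8065 genes), 130 of the 234 (55.6%) separated cattle from sheep, with 42 higher in cattle and 88 higher in sheep, where 48.7% of all genes tested did. For cattle against goats, 156 differed (66.7%), with 62 higher in cattle and 94 in goats, with 52.9% over all genes. For sheep against goats, 82 differed (35.0%), with 46 higher in sheep and 36 in goats, with 25.4% over all genes. The median absolute log2 difference was 1.44, 1.82, and 0.83 for these genes and 0.89, 0.96, and 0.57 over all genes.

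Among genes present in every library, the shares of calls lay near the background, and the differences from it were not tested. With a scaled CPM above 1 required in all 9 libraries, 113 of the matched genes were left, of which 44 (38.9%), 61 (54.0%), and 22 (19.5%) differed in the 3 comparisons, with 46.0%, 50.2%, and 22.6% of 6725 genes as background. Among the 234, the 92 genes with alike exon structure and introns in the 3 species had 42 (45.7%), 50 (54.3%), and 18 (19.6%) calls. The 142 others had 88 (62.0%), 106 (74.6%), and 64 (45.1%). With the second matching, 155 of 265 genes passed the filter, and 86 (55.5%), 85 (54.8%), and 43 (27.7%) differed, with 48.7%, 52.4%, and 25.1% of 7991 genes as background. Of these, 39, 36, and 19 were higher in the first species named and 47, 49, and 24 were lower.

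**Figure D5:**
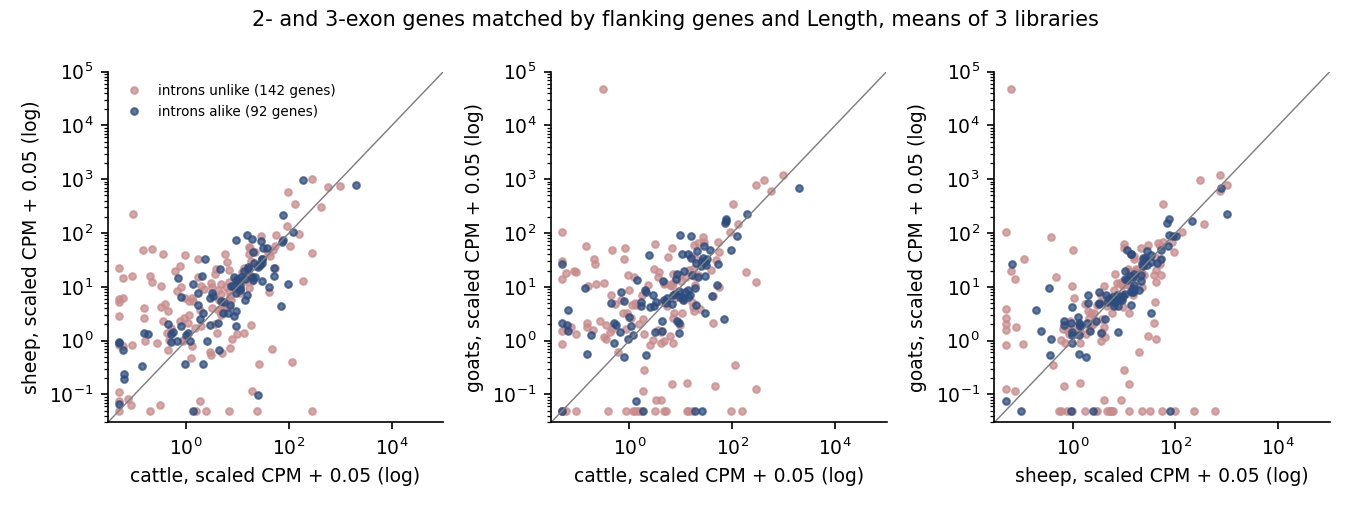
Each point is 1 of 234 genes matched by flanking genes and length, with the mean scaled CPM of 3 libraries plus 0.05 in one species on the x axis and in another on the y axis, both on log axes, and the line of equal values in grey. The 92 genes with alike structure and introns (blue) lie closer to the line than the 142 others (red), with a median absolute log2 difference of 1.13 and 1.82 between cattle and sheep.

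As a description across genes, rank correlations between libraries were taken over 211 of the 467 genes matched by place and length. For each of the 211, 2 or more libraries exceeded a CPM of 1. Between a cattle and a sheep library, the correlation had a mean of 0.490 over 9 library pairs. It was 0.336 for cattle with goats and 0.492 for sheep with goats. Over 7586 genes matched by their internal exons and passing the same limit, it was 0.767, 0.742, and 0.841. Without this limit, all 467 genes gave 0.779, 0.698, and 0.733 in the same order of comparisons. The 8865 genes matched by internal exons then gave 0.845, 0.829, and 0.894. The gap between these sets was thus smaller when genes of low counts were kept. Within a species, the 211 genes gave 0.977 in cattle, 0.934 in sheep, and 0.937 in goats. Genes are not independent replicates, and these values share libraries.

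With the first matching, 87 of the 234 genes (37.2%) had an adjusted p under 0.05 in one species against both others, no overlap of libraries, and a mean scaled CPM of at least 10 in a species, where 40.7% of the 8065 genes did. Only 25 of the 87 had alike structure and introns, and so did 3 of the 23 genes with the largest differences (up to 4 in each direction for each species, with 1 gene listed under 2 species). That gene was the most abundant goat gene, ENSCHIG00000012599, which came first among those higher in goats with the unlike genes named above. ENSCHIG00000021517 (chr22:32383978-32404286) is an example. By place and length it was joined with ENSBTAG00000013059 and ENSOARG00020021609, which had no count in any library, and was at least 900-fold higher in goats than in cattle (scaled CPM of 110, 128, and 80.5 against 3 counts per library). By its internal exon of 218 nt and its introns it was joined with ENSBTAG00000021506 (chr22:32436509-32457970) and ENSOARG00020021679 (chr19:33995666-34017167). The scaled CPM was then 95.8, 105, and 107 in cattle, 80.0, 136, and 97.9 in sheep, and 112, 130, and 82.4 in goats, and the log2 difference of cattle was -0.03 ± 0.26 (SE) from sheep and -0.08 ± 0.26 from goats (edgeR adjusted p = 0.937 and 0.821). Its annotated length is 1338 nt in cattle and 567 nt in goats. With an offset for annotated length, the difference between cattle and goats became -1.32 (edgeR adjusted p = 0.00190).

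The genes set apart in 1 species were therefore taken from the second matching, which gave 60 of 155 (38.7%), with 40.6% of 7991 genes as background, and the first in each direction is given. Genes that passed the filter through 1 species alone are among them. In cattle, 16 genes were higher (10.3%) and 23 lower (14.8%) than in both other species, with 13.4% and 13.5% over all genes. The first of the higher ones was ENSBTAG00000054808 of the array on chromosome 18. Its scaled CPM was 8137, 6549, and 9256 in the cattle libraries. Its counterparts had 16.5, 187, and 38.2 in the sheep libraries and 208, 50.4, and 61.6 in the goat libraries, far below every cattle value. The log2 difference was 6.63 ± 0.99 (SE) from sheep and 6.22 ± 0.97 from goats (edgeR adjusted p = 0.000310 and 0.000390), and between sheep and goats it was -0.41 ± 0.78 (edgeR adjusted p = 0.743). Leaving out 1 library at a time, the difference from sheep ran from 6.12 to 8.19 and that from goats from 5.89 to 7.22. With an offset for annotated length, they were 4.47 and 5.74.

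The first of the lower ones in cattle was ENSBTAG00000004515 (chr28:6451737-6519065), with a 396-nt internal exon and a first intron of 61652 nt. It had a scaled CPM of 0.199, 0.0897, and 0.796 in cattle (5, 3, and 26 counts), 10.9, 17.1, and 14.8 in sheep (ENSOARG00020014578), and 35.5, 43.6, and 16.0 in goats (ENSCHIG00000026110). All sheep and goat libraries lay above the cattle libraries, by a log2 difference of -5.26 and -6.41 in cattle. The goat model is longer, 5200 nt against 1671 nt in cattle and 1588 nt in sheep. With an offset for length, the differences of cattle were -5.34 from sheep and -4.78 from goats, and that between sheep and goats turned from -1.15 to 0.56, neither with a call. The gene passed the filter through the sheep and goat libraries alone, so the differences of cattle are given as a description with no test. Without cattle replicate C, which held most of the counts of the species, the differences were larger, as given by the lower ends of the ranges over libraries left out, -6.63 and -7.72.

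In sheep, 9 genes were higher (5.81%) and 6 lower (3.87%) than in both other species, with 4.61% and 4.87% over all genes. ENSOARG00020000089 (chr1:17275653-17278785, internal exon 187 nt) had a scaled CPM of 30.2, 7.13, and 1.30 in sheep (747, 143, and 24 counts). The matched genes had 1 count in the 3 cattle libraries together (ENSBTAG00000007194) and none in the goat libraries (ENSCHIG00000019738), and the mean in sheep was at least 50.4-fold higher than 3 counts per library in goats. The gene passed the filter through the sheep libraries alone, so this difference is given as a description with no test. The sheep libraries differed widely among themselves. ENSOARG00020008725 (chr1:106343553-106345946, internal exon 248 nt) was lower, with 54.1, 40.6, and 79.1 in sheep, 374, 520, and 481 in cattle (ENSBTAG00000015154), and 379, 349, and 319 in goats (ENSCHIG00000027012). The log2 difference was 2.99 ± 0.32 in cattle over sheep and -2.59 ± 0.32 in sheep against goats (edgeR adjusted p = 3.84e-05 and 0.000248). Between cattle and goats it was 0.39 ± 0.30 (edgeR adjusted p = 0.284). The sheep model is shorter, 1510 nt against 3754 and 2703 nt, and with an offset for length the differences were 1.67 and -1.75.

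In goats, 10 genes were higher (6.45%) and 4 lower (2.58%) than in both other species, with 5.58% and 3.89% over all genes. ENSCHIG00000020940 (chr4:114426012-114547909, internal exon 130 nt, introns of 24359 and 96558 nt) had a scaled CPM of 27.7, 34.2, and 19.9 in goats. Its counterparts had no count in cattle (ENSBTAG00000044068) and 1 count in the 3 sheep libraries together (ENSOARG00020010544), so that the mean in goats was at least 231-fold higher than 3 counts per library in cattle. It passed the filter through the goat libraries alone, and no test is given for the same reason. ENSCHIG00000018841 (chr2:94806466-94988987, internal exon 217 nt) was lower, with 0.325, 0.173, and 0.229 in goats (6, 2, and 3 counts), 5.98, 6.04, and 5.88 in cattle (ENSBTAG00000006159), and 18.5, 7.83, and 14.6 in sheep (ENSOARG00020022128). The log2 difference was 4.54 in cattle over goats and 5.73 in sheep over goats. The gene passed the filter through the cattle and sheep libraries alone, so these differences are also given with no test.

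No call in any of the 3 comparisons was made for 43 of the 155 genes. The most abundant of them, ENSBTAG00000020097 (chr9:75912273-75926756, internal exon 141 nt), had a scaled CPM of 176, 172, and 164 in cattle, 131, 85.2, and 107 in sheep (ENSOARG00020007239), and 133, 68.1, and 8.94 in goats (ENSCHIG00000015047). Goat replicate C was far below the other goats. Without goat replicate A, the log2 difference between cattle and goats was 2.21 (edgeR adjusted p = 0.0148), against 1.28 ± 0.64 with all libraries (edgeR adjusted p = 0.111).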

How the data were processed

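The authors enriched mRNA from frozen liver with oligo(dT) beads, trimmed the reads (Trimmomatic 0.39), mapped them (STAR 2.7.6), and deposited raw counts per gene and library from featureCounts, with exon positions and the annotated exon length (Length). The strand, multi-mapping, and read-pair options are not given in the sources used here. Exon intervals of a gene were pooled where they overlapped, and CPM was taken of the library total. Members, lists, and rules were chosen with earlier results of these data known. Flanking genes were genes whose internal exon lengths gave mutual best matches. Counts were tested with edgeR 4.0.16 (TMM, quasi-likelihood, robust, 9 libraries in 1 fit) in R 4.3.3, with DESeq2 1.42.0 as an alternative. The edgeR fit was checked on simulated counts, and the DESeq2 fit was not. The SE of a log2 difference was derived from the F statistic of the edgeR test. Replicates are different animals, and their counts differed by 43.0 to 319 chi-square per degree of freedom. The genes named are the 8 with the highest mean CPM per species and, of the matched genes, those that stood apart in one species (adjusted p under 0.05 in both comparisons of it, libraries not overlapping, a mean scaled CPM of 10 or more in a species), ranked by the smaller of their 2 differences (4 in each direction were listed and at most 2 are printed). Lists fixed by gene symbol (metal and acute phase genes, liver hormones and secreted factors, methyl transfer and redox enzymes, immediate early regulators, respiratory chain subunits, junction genes, ribosomal protein and histone genes, and cell type markers) could not be applied, because no table used here pairs the identifiers with names. No sequence is printed, since no genome was used.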

Additional observations from a re-analysis of the deposited data

How the results depend on the processing

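The order of the count shares, goats over cattle over sheep, held under all alternatives tried (nuclear counts, joined gaps, no exon overlap, without the most abundant genes, counts per length, each library left out), though no test with 3 libraries against 3 could pass 0.05. Leaving out 1 library, the differences ran from 1.01 to 1.22 percentage points between cattle and sheep, from -5.43 to -3.29 between cattle and goats, and from -6.54 to -4.41 between sheep and goats. With counts per annotated length, the cattle and sheep libraries overlapped (0.393 points, p = 0.3, exact permutation test) and goats had 22.3%. At a CPM of at least 5, 716 cattle, 556 sheep, and 746 goat genes were detected. Of the matched genes, 44, 61, and 22 differed between cattle and sheep, cattle and goats, and sheep and goats with a scaled CPM above 1 in every library, 44, 52, and 26 of 85 with Lengths at most 25% apart (51.8%, 61.2%, and 30.6%, against 48.5%, 52.5%, and 25.1% of all genes), and 86, 85, and 43 with the second matching, where fewer genes were tested. With that matching and an offset of exon length, the numbers were 85, 96, and 65 (54.8%, 61.9%, and 41.9%, against 49.1%, 50.7%, and 25.1% of all genes), and 16, 23, and 29 of them were higher in the first species. The offset moved the median log2 difference of all genes from 0.00 to -0.39 between cattle and sheep, from -0.09 to -0.27 between cattle and goats, and from 0.01 to 0.13 between sheep and goats. With the first matching and 1 library left out, the numbers ran from 108 to 135, from 136 to 159, and from 66 to 84. These were 47.0% to 58.4%, 59.1% to 68.5%, and 28.6% to 36.4% of the matched genes tested. Over all genes, the shares ran from 38.3% to 54.2%, from 42.2% to 56.0%, and from 17.0% to 28.9%. The letters A, B, and C are on different animals in each species, and a fit with a replicate block for the letter called 126, 155, and 81 (47.9%, 51.6%, and 24.0% over all genes). Same-lettered libraries had a mean correlation of deviations of -0.0585, -0.0543, and 0.191. For sheep with goats the correlations were 0.267 (A), 0.286 (B), and 0.0186 (C), and 4 of these 6 libraries correlated best with their own letter, against 2 and 0 of 6 for the other comparisons. In no comparison did all 3 pairs exceed 0.1, and the letters were not taken to pair samples. Of 651 checks of single matched genes, 632 kept their side of the threshold and no call was reversed. These genes were picked by their calls, or lack of calls, in the same data. Some passed the filter only through the species where they are high. The number is therefore a description and no measure of how stable calls are in general. For ENSCHIG00000018841, whose lower level in goats is given with no test, the difference between its cattle and sheep counterparts (adjusted p = 0.0184, edgeR) lost its call in 6 alternatives. Depth limits the low levels, since 3 counts correspond to a scaled CPM of up to 0.118 in cattle, 0.159 in sheep, and 0.255 in goats.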
